A study of Homo sapiens with 3 samples.

Results

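The 33 genes described here lie in 1 stretch of the long arm of human chromosome 21, from MRPS6 on the centromere side to MX1 on the telomere side. They are 33 of 20445 genes that could be scored in a pooled knockout screen, and the screen carried 99 guides against them, 3 for each gene. The genes were chosen by their place on the chromosome, once it was known that guides against chromosome 21 genes were more abundant after drug treatment in this screen. The drug ratios below therefore describe the genes and test nothing about them.

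The screen was made in NUGC3, a cell line established from a human gastric cancer, with the GeCKO library of guide RNAs; each guide leads the nuclease Cas9 to cut inside a chosen gene. Guides were read from genomic DNA of 3 groups: cells labelled DMSO Day0, cells labelled DMSO Day14 and cells given 10 nM RTX for 14 days. All 3 carried the same library, DMSO is the solvent, and the labels do not spell out RTX beyond a series title on antifolate drugs. The labels' treatment note names the day 0 group as the one kept in DMSO for 14 days, so groups were taken from the sample titles. With a single library for every condition, differences between conditions carry no replicate check, and no p-value is given.

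Guides that are neutral for growth keep their shares relative to each other. A guide that slows growth loses share against them, and a guide that helps cells under the drug gains it. Chromosome 21 is the smallest human autosome, and the stretch from RUNX1 to MX1 is best known from trisomy 21 (Down syndrome) and from blood cancers. Its genes have no common function: they include transcription factors, potassium channels, carbonyl reductases, a biotin ligase and interferon-induced GTPases. SLC19A1, the reduced folate carrier that brings antifolates into cells, lies on the same arm nearer the telomere and is none of the 33.

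The libraries held 16547572 (day 0), 18805737 (DMSO) and 17344507 (RTX) reads, over 62916 guides. The 99 guides had between 1 and 917 reads at day 0, with a median of 253, against medians of 269 in DMSO and 400 in RTX. Counting error alone gives a guide of these genes a median SD of 0.11 to 0.13 on the log2 scale, depending on the comparison. The spread between the 991 non-targeting guides that were used was larger, with an SD of 0.56 for RTX over day 0, 0.64 for RTX over DMSO and 0.53 for DMSO over day 0. Values for a gene are the median of the log2 ratios of its guides, relative to all guides, with the range over guides as the only spread that can be given. Of the 99 guides, 98 passed the filter of 10 normalized reads at day 0, and the guide left out was against CBR3, so 32 genes had 3 guides and CBR3 had 2.

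Guides against these genes took a larger part of the RTX library than of either other library. Together the 99 guides held 28371 day 0 reads, 32826 DMSO reads and 46066 RTX reads. That was 0.172% of the day 0 library (95% Clopper-Pearson interval 0.170 to 0.174), 0.175% of the DMSO library (0.173 to 0.177) and 0.266% of the RTX library (0.263 to 0.268). These intervals cover counting error only, since reads from PCR are not independent molecules. The share in RTX was 1.55 times that at day 0 and 1.52 times that in DMSO, while the share in DMSO was 1.02 times that at day 0. For the non-targeting guides the share in RTX was 1.07 times that at day 0 and 0.926 times that in DMSO, and the share in DMSO was 1.15 times that at day 0. The shift of the 33 genes was thus the larger one in both comparisons with RTX and the smaller one in DMSO over day 0.

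In RTX over day 0, the comparison that leaves out the DMSO day 14 library, all 33 genes had a median above 0, where 49.5% of all scored genes did. With the non-targeting guides as the zero point, 29 of 33 were above 0 and 36.4% of all scored genes; the 4 that turned below 0 were KCNJ15, WRB, MX2 and PSMG1. The medians ran from 0.07 for KCNJ15 to 2.19 for HLCS, and the median of these values was 0.73, against -0.01 over all scored genes. In 24 of the 33 genes every guide used was above 0, against 14.4% of all scored genes, and 89 of the 98 guides were, where 49.8% of all guides of scored genes were. Because the genes were chosen with this comparison known, these shares are read as a description. No gene had fewer than 2 guides above 0.

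**Figure D1:**
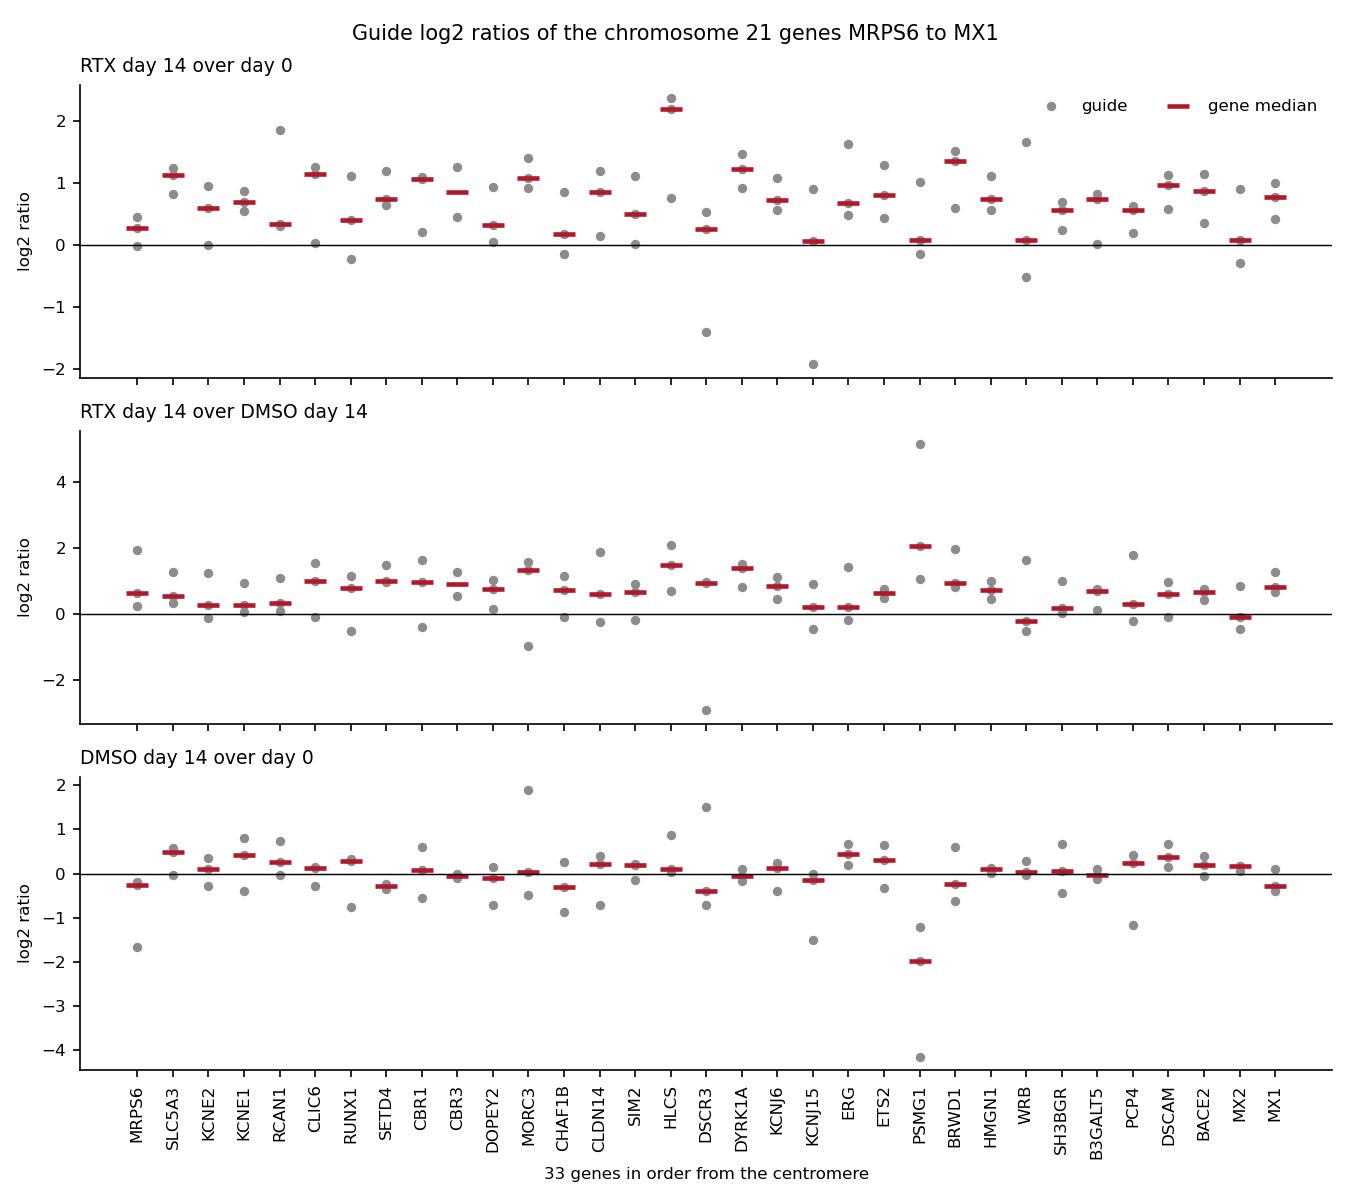
The vertical axes give the log2 ratio of each guide (grey points) and the gene median (red bars) for the 33 genes in order from the centromere, in RTX over day 0, RTX over DMSO and DMSO over day 0. All 33 red bars lie above 0 in RTX over day 0, 31 do in RTX over DMSO and 21 in DMSO over day 0, where PSMG1 is the lowest at -1.98; centred on the non-targeting guides the counts are 29, 32 and 11.

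A 2-fold gain, a median log2 ratio of at least 1, was reached by 7 of the 33 genes in RTX over day 0, against 0.665% of all scored genes. They were HLCS at 2.19, BRWD1 at 1.35, DYRK1A at 1.24, CLIC6 at 1.15, SLC5A3 at 1.13, MORC3 at 1.08 and CBR1 at 1.07. The last 4 fell short under some settings: CLIC6 (0.82) and CBR1 (0.79) with the mean of guides, SLC5A3 (0.90) and MORC3 (0.91) with a pseudocount of 20, and CBR1 (0.96) and MORC3 (0.98) when centred on the non-targeting guides. CBR3 reached it, at 1.27, without the filter on reads. CBR1 lay just inside that size and DSCAM, at 0.98, just outside it. Another 16 genes lay from 0.5 to under 1, and 10 from 0 to under 0.5. Of the 136 scored genes of the whole screen at or past this size, 50 were on chromosome 21, SLC19A1 among them. The RefSeq gene table placed 19345 of the 20445 scored genes, 221 of them on chromosome 21. Names it did not place are not counted as chromosome 21 genes here. In RTX over DMSO, 62 of the 591 genes at or past this size were on chromosome 21.

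In RTX over DMSO, 31 of the 33 genes had a median above 0, where 49.7% of all scored genes did. Centred on the non-targeting guides these figures were 32 genes and 60.4%. The median over the 33 genes was 0.70, against -0.002 over all scored genes. The 2 genes below 0 were WRB at -0.21 and MX2 at -0.09, which turned to 0.30 and 0.09 with the mean of guides, MX2 also to 0.009 when centred on the non-targeting guides. With the mean of guides DSCR3 turned from 0.93 to -0.35. Every guide used was above 0 in 18 of the 33 genes, against 14.5% of all scored genes, and 81 of 98 guides were, where 50.1% of all guides of scored genes were. The size of 1 was reached by 4 genes, PSMG1 at 2.06, HLCS at 1.49, DYRK1A at 1.40 and MORC3 at 1.35, where 2.89% of all scored genes reached it. MORC3 stood at 0.65 with the mean of guides, below that size. SETD4 (1.14) and BRWD1 (1.24) reached it with the mean of guides, and CBR3 (1.27) without the filter on reads. CLIC6 lay just outside at 0.997 and reached 1.007 with a pseudocount of 1. Centred on the non-targeting guides, 10 of the 33 genes reached it, and 3.92% of all. The comparisons with day 0 and with DMSO share the RTX library, so they are not independent of each other.

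In DMSO over day 0, without drug, the genes showed no shift of this size. Their median was 0.10, 21 of 33 lay above 0, where 49.8% of all scored genes did, and 5 had every guide above 0, against 14.4% of all scored genes, and 5 had every guide below 0, against 15.2%. Both counts of 5 of 33 are near those shares. Centred on the non-targeting guides, the median of the 33 genes was -0.09, with 11 above 0 and 27.6% of all scored genes, so the sign of this small value depends on the scaling. PSMG1 was the 1 gene at a median of -1 or lower, a size that 3.54% of all scored genes reached. This 1 of 33 is near that share. In 23 of the 33 genes the median was at least 0.5 in RTX over day 0 and within 0.5 of 0 in DMSO over day 0, a pattern found in 5.39% of all scored genes.

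HLCS, the ligase that attaches biotin to carboxylases, stood highest of the 33 in RTX over day 0 and ranked 5 among all scored genes. Its guides had day 0 reads of 729, 32 and 106, DMSO reads of 840, 39 and 222 and RTX reads of 1242, 165 and 576. All 3 were above both other libraries in RTX, and the log2 ratios to day 0 were 0.76, 2.19 and 2.38. The guide with the most reads had the smallest ratio, and in DMSO over day 0 the gene stood at 0.11. Without its guide of 32 reads the median over day 0 was 1.57. The range over HLCS guides, 0.76 to 2.38, overlapped that of BRWD1, the next gene in the order, at 0.60 to 1.53.

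**Figure D2:**
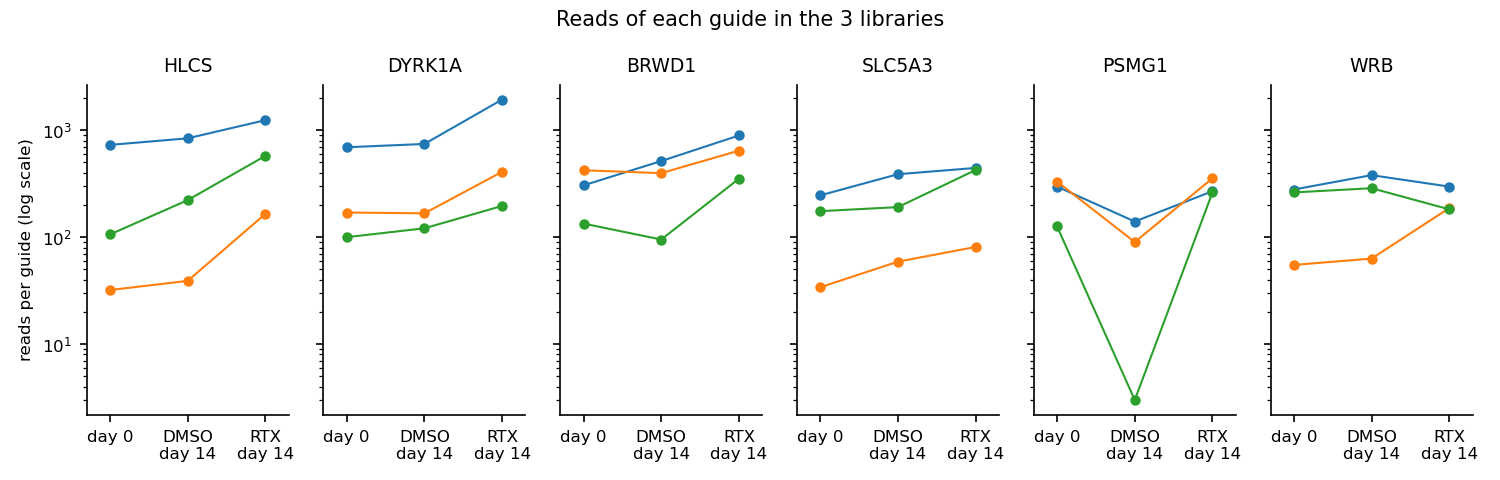
Each panel plots the reads of the 3 guides of a gene (1 line per guide, log axis) in the day 0, DMSO day 14 and RTX day 14 libraries, as whole reads without scaling. All guides of HLCS, DYRK1A, BRWD1 and SLC5A3 are highest in RTX, those of PSMG1 are lowest in DMSO, and 1 of the 3 WRB guides is highest in RTX.

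The other metabolic and modifying enzymes also lay above 0 in both comparisons with RTX. CBR1 and CBR3, neighbouring genes for carbonyl reductases, stood at 1.07 and 0.86 in RTX over day 0. The CBR1 guides had day 0 reads of 381, 444 and 227, DMSO reads of 289, 749 and 269 and RTX reads of 828, 516 and 485. Its second guide was therefore highest in DMSO, with a log2 ratio of -0.39 in RTX over DMSO, while the other 2 were at 0.98 and 1.64. For CBR3 the 2 guides used had day 0 reads of 132 and 728, DMSO reads of 146 and 760 and RTX reads of 327 and 1005, and both were highest in RTX.

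The guide left out for CBR3 had 1 day 0 read, no DMSO read and 10 RTX reads. BACE2, a membrane protease related to the beta-secretase of the amyloid precursor, had day 0 reads of 573, 526 and 203, DMSO reads of 613, 675 and 299 and RTX reads of 744, 970 and 459. Its 3 guides were all highest in RTX, and the median over day 0 was 0.87. B3GALT5, a galactosyltransferase of glycan synthesis, had day 0 reads of 263, 378 and 355, DMSO reads of 270, 410 and 427 and RTX reads of 268, 638 and 634. Its first guide was near day 0, at 0.02 in RTX over day 0, and the other 2 stood at 0.74 and 0.82. All 5 enzymes had every guide used above 0 in RTX over day 0, with a median of 0.87, and 4 of 5 did in RTX over DMSO.

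Among the 9 genes of DNA binding and chromatin, all had medians above 0 in both comparisons with RTX, and 7 had every guide above 0 in RTX over day 0. BRWD1, a bromodomain and WD-repeat protein, had day 0 reads of 305, 422 and 134, DMSO reads of 515, 397 and 95 and RTX reads of 893, 644 and 352. All 3 guides were highest in RTX, although they moved apart from each other in DMSO, from -0.63 to 0.59. MORC3, a nuclear ATPase of the MORC family, had day 0 reads of 25, 50 and 400, DMSO reads of 118, 38 and 461 and RTX reads of 52, 112 and 1072. Over day 0 its guides lay close together in RTX, at 0.92, 1.08 and 1.40. Over DMSO the first guide was at -0.98, and it stood at 1.89 in DMSO over day 0.

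SETD4, a SET-domain methyltransferase, had day 0 reads of 843, 315 and 253, DMSO reads of 803, 276 and 230 and RTX reads of 1428, 501 and 590. All its guides were a little below day 0 in DMSO, from -0.34 to -0.23, and above it in RTX, from 0.65 to 1.20. HMGN1, a nucleosome-binding protein, had day 0 reads of 495, 103 and 356, DMSO reads of 553, 124 and 431 and RTX reads of 834, 230 and 535. Its guides stayed near day 0 in DMSO, from 0.00 to 0.12, and stood between 0.57 and 1.11 in RTX over day 0. The range over guides was 0.54 wide for both genes, against a median width of 0.88 over the 33.

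ERG and ETS2 are neighbouring genes for transcription factors of the ETS family. ERG guides had day 0 reads of 333, 239 and 200, DMSO reads of 511, 427 and 257 and RTX reads of 538, 337 and 638. All 3 were above day 0 in both later libraries, with medians of 0.45 in DMSO and 0.68 in RTX, and the ratio of RTX over DMSO was 0.21. ETS2 guides had day 0 reads of 163, 75 and 274, DMSO reads of 143, 133 and 381 and RTX reads of 223, 192 and 488. The ETS2 medians were 0.31 in DMSO and 0.81 in RTX over day 0, and its 3 ratios of RTX over DMSO lay within 0.27 of each other. The guide ranges of ERG and ETS2 overlapped in each of the 3 comparisons.

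SIM2, a basic helix-loop-helix transcription factor, had day 0 reads of 203, 351 and 372, DMSO reads of 203, 451 and 485 and RTX reads of 293, 358 and 821. Its second guide was at 0.02 in RTX over day 0 and the other 2 at 0.51 and 1.12. RUNX1, a master transcription factor of blood formation, had a median of 0.42 with a range of -0.22 to 1.12. CHAF1B, a subunit of the histone chaperone CAF-1 that places histones on newly copied DNA, had a median of 0.19 with a range of -0.14 to 0.85. In DMSO over day 0 CHAF1B stood at -0.30, and its ratio of RTX over DMSO was 0.71.

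The 6 genes of channels and solute transport had a median of 0.71 in RTX over day 0 and 0.41 in RTX over DMSO, all above 0. SLC5A3, the sodium and myo-inositol cotransporter, had day 0 reads of 246, 34 and 175, DMSO reads of 388, 59 and 191 and RTX reads of 444, 81 and 425. At 0.49 it had the highest median of the 33 in DMSO over day 0. Each SLC5A3 guide was highest in RTX, with ratios to day 0 of 0.83, 1.13 and 1.25. SLC5A3 shares its start with MRPS6 in the RefSeq table and lies within its span. MRPS6, a protein of the small mitochondrial ribosomal subunit, read lower in RTX over day 0, at 0.28. In RTX over DMSO MRPS6 stood at 0.64 and SLC5A3 at 0.56. In DMSO over day 0 MRPS6 was at -0.26, with every guide below 0.

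CLIC6, a chloride intracellular channel protein, had day 0 reads of 243, 386 and 94, DMSO reads of 300, 474 and 86 and RTX reads of 548, 400 and 235. Its second guide did not share the gain, at 0.04 over day 0, against 1.15 and 1.27 for the others. KCNJ6, an inwardly rectifying potassium channel, had day 0 reads of 163, 255 and 189, DMSO reads of 136, 337 and 229 and RTX reads of 275, 548 and 285. All 3 of its guides were highest in RTX, from 0.57 to 1.08 over day 0. KCNE1, a potassium channel subunit, had day 0 reads of 382, 363 and 137, DMSO reads of 575, 716 and 115 and RTX reads of 626, 672 and 205. Its median was 0.70 over day 0 and 0.26 over DMSO, since 2 of its guides had also gained in DMSO.

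KCNE2, a related subunit, had a median of 0.61 over day 0 with a range of -0.003 to 0.96. KCNJ15, another inwardly rectifying channel, was the lowest of the 33 in RTX over day 0. Its median was 0.07 and its range -1.93 to 0.92, and the lowest guide had only 29 day 0 reads, 8 DMSO reads and 4 RTX reads.

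DYRK1A, a kinase encoded in the Down syndrome region, was above 2-fold in both comparisons with RTX. Its guides had day 0 reads of 693, 170 and 100, DMSO reads of 744, 167 and 121 and RTX reads of 1937, 409 and 196. The ratios were -0.18 to 0.11 in DMSO over day 0, 0.93 to 1.47 in RTX over day 0 and 0.81 to 1.51 in RTX over DMSO. RCAN1, a regulator of the phosphatase calcineurin, had a median of 0.35 and a range of 0.32 to 1.85 over day 0. PCP4, a small calmodulin-binding protein, had day 0 reads of 836, 245 and 54, DMSO reads of 1241, 325 and 24 and RTX reads of 966, 367 and 87. Its ratios over day 0 were 0.20, 0.57 and 0.63 in RTX, and the first guide was highest in DMSO.

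PSMG1 stood apart from the rest of the 33 genes in the DMSO library. It is a chaperone that helps assemble the proteasome core, and its guides had day 0 reads of 297, 331 and 126, DMSO reads of 140, 90 and 3 and RTX reads of 269, 355 and 262. All 3 guides were lower in DMSO than at day 0, with a median of -1.98 and a range of -4.14 to -1.21. In RTX over day 0 they stood at -0.15, 0.09 and 1.02. Its ratio of 2.06 in RTX over DMSO, the highest of the 33 genes, thus sits beside low reads in DMSO and a median near day 0 in RTX. No other of the 33 genes had a median under -0.5 in DMSO over day 0. Of the 221 chromosome 21 genes placed, 11 had a median of -1 or lower there.

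The remaining genes of membrane traffic and protein insertion were low in RTX over day 0. With PSMG1 and MRPS6, the 5 genes of this group had a median of 0.25 there, and none reached 0.5. In RTX over DMSO their median was 0.75, with 4 above 0, against 0.70 over the 33 genes. In DMSO over day 0 it was -0.26. DSCR3 (VPS26C in RefSeq), a subunit of the retriever complex that recycles membrane proteins, had day 0 reads of 50, 212 and 96, DMSO reads of 169, 179 and 63 and RTX reads of 16, 313 and 116. Its first guide went against the others, at -1.40 in RTX and 1.51 in DMSO over day 0, and the gene median was 0.25 in RTX. DOPEY2 (DOP1B in RefSeq), linked to endosome and Golgi traffic, had a median of 0.33 and a range of 0.06 to 0.93.

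WRB (GET1 in RefSeq) is a receptor for inserting tail-anchored proteins into the endoplasmic reticulum. Its guides had day 0 reads of 279, 55 and 262, DMSO reads of 380, 63 and 287 and RTX reads of 297, 187 and 182. The second guide was at 1.67 in RTX over day 0 while the others were at 0.08 and -0.52, so the gene median was 0.08. Guides of 1 gene thus differed by up to 2.19 for WRB, 1.94 for DSCR3 and 2.84 for KCNJ15 in RTX over day 0, the 3 widest ranges of the 33.

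The last group holds genes of adhesion, junctions and the interferon response, with a median of 0.78 in RTX over day 0 and 0.60 in RTX over DMSO. DSCAM, a neuronal adhesion molecule, had day 0 reads of 345, 547 and 339, DMSO reads of 427, 792 and 608 and RTX reads of 769, 1089 and 513. All 3 guides were above day 0 in both later libraries, with medians of 0.37 in DMSO and 0.98 in RTX. CLDN14, a claudin of tight junctions, had day 0 reads of 79, 151 and 253, DMSO reads of 52, 198 and 371 and RTX reads of 188, 278 and 281. Its ratios over day 0 in RTX ran from 0.14 to 1.19, and the third guide was highest in DMSO.

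SH3BGR, a protein with a motif that binds SH3 domains, had day 0 reads of 38, 231 and 405, DMSO reads of 70, 188 and 470 and RTX reads of 65, 347 and 486. Its median was 0.57 over day 0 but 0.19 over DMSO, the third lowest of the 33 genes in that comparison. MX1 and MX2 are neighbouring interferon-induced GTPases that restrict viruses. The MX1 guides had day 0 reads of 276, 176 and 293, DMSO reads of 254, 213 and 246 and RTX reads of 564, 308 and 397. All 3 were highest in RTX, with a median of 0.78 over day 0. The MX2 guides had day 0 reads of 91, 410 and 620, DMSO reads of 115, 480 and 778 and RTX reads of 74, 779 and 662, so that only the second was highest in RTX, and the median was 0.09.

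The order of the 33 genes is loose against the spread between guides. In RTX over day 0 the range over guides of a gene had a median of 0.88 and went from 0.32 to 2.84. For all 32 pairs of neighbours in the order of medians the guide ranges overlapped, as they did in 486 of all 528 pairs (92.0%). Guides with few reads varied more: the 15 guides under 100 normalized reads at day 0 had an SD of 1.10, the 41 guides from 100 to under 300 an SD of 0.54 and the 42 guides of at least 300 an SD of 0.44. The number above 0 was 12 of 15, 39 of 41 and 38 of 42 in these classes, with medians of 1.08, 0.85 and 0.58. The low classes had higher medians in this comparison, and the best-counted class was still above 0 in most guides. Day 0 reads both set the classes and form the denominator of this ratio, so class and ratio are not independent. In RTX over DMSO, a ratio without day 0 reads, the class medians were 0.65, 0.94 and 0.63.

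The medians lay close together along the stretch. In order from the centromere, the first 11 genes (MRPS6 to DOPEY2) had a median of 0.70 in RTX over day 0, the next 11 (MORC3 to ETS2) 0.73 and the last 11 (PSMG1 to MX1) 0.74. In RTX over DMSO the values were 0.75, 0.71 and 0.66. Genes past 2-fold over day 0 were 3, 3 and 1 in the same order. Differences between these groups were not tested.

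Other chromosome 21 genes were also mostly above 0 in the comparisons with RTX. Within the same stretch, 12 further gene names of the library, among them TTC3, PIGP, IGSF5 and FAM3B, had a median of 0.73 in RTX over day 0 and 0.61 in RTX over DMSO. All 12 were above 0 in both, and RIPPLY3 and LCA5L passed 2-fold over day 0 at 1.23 and 1.22. RIPPLY3 and DSCR6 are names of the same gene in the RefSeq table, and the library's guides to them stood at 1.23 and 0.83. The 96 genes placed before the stretch in the RefSeq order had a median of 0.62 in RTX over day 0, with 86 above 0. The 66 between MX1 and SLC19A1 had one of 0.76, with 64 above 0. The 13 genes on the telomere side of SLC19A1 had a median of 0.68 and all were above 0. In RTX over DMSO the medians of these parts, in the same order, were 0.75, 0.79 and 0.68, against 0.70 for the 33 genes. There 32.3%, 31.8% and 15.4% of their genes reached a 2-fold gain, against 12.1% of the 33. In RTX over day 0 the shares of the 3 parts were 17.7%, 31.8% and 15.4%, against 21.2% of the 33 and 16.7% of the 12 further names.

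**Figure D3:**
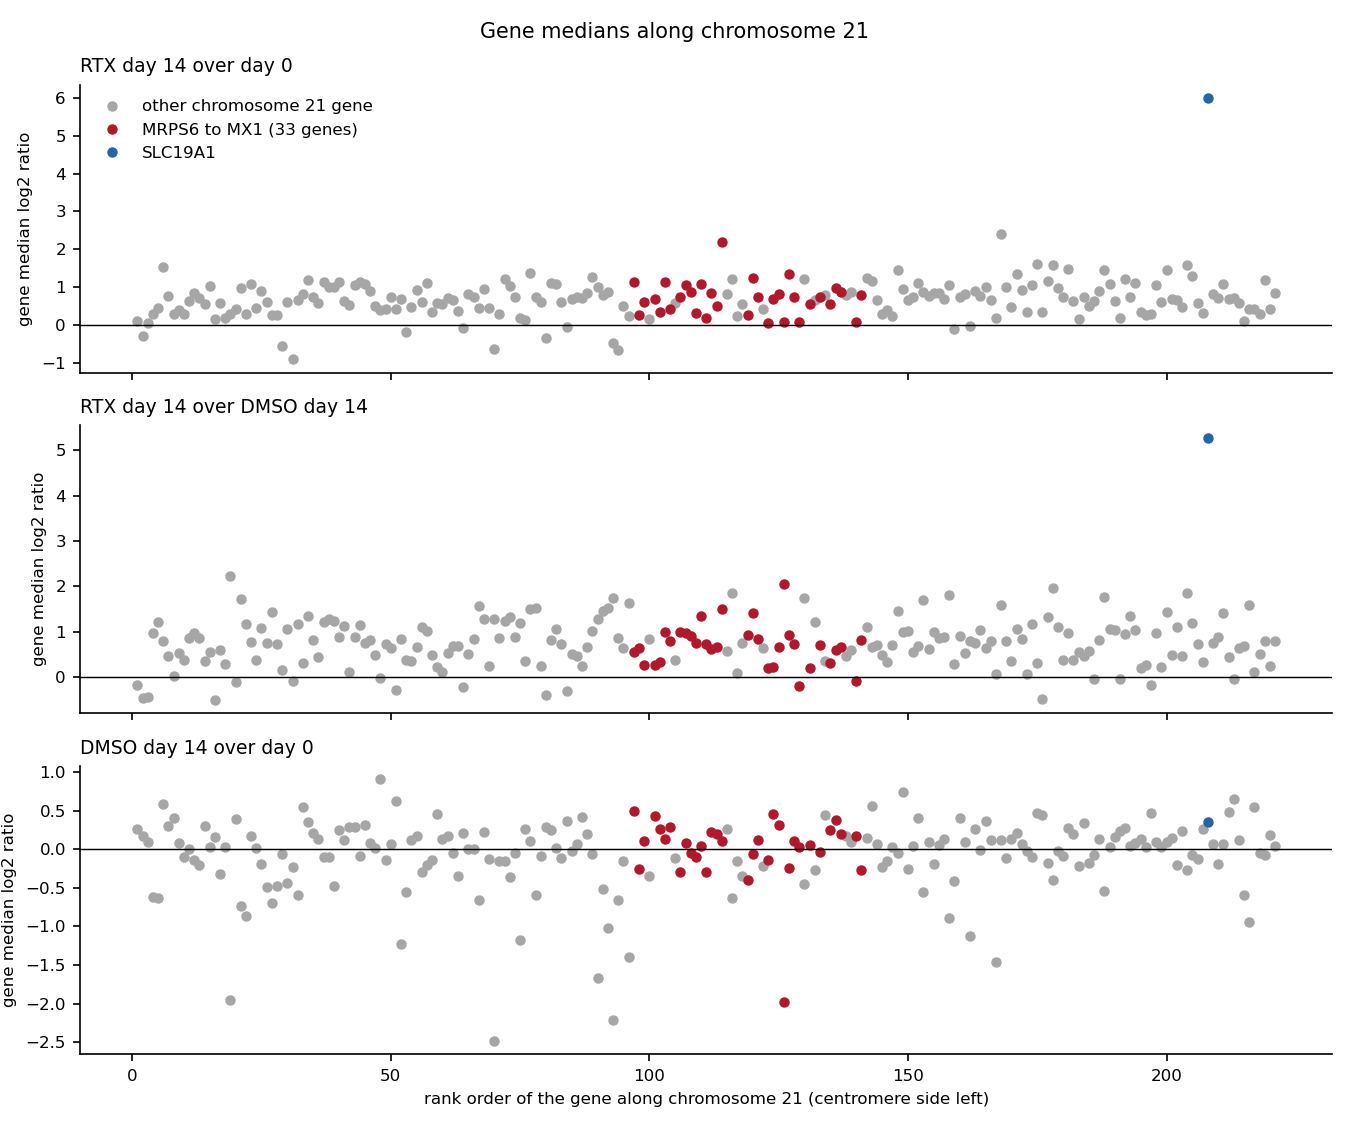
Gene medians (log2 ratio, vertical axis) of the 221 chromosome 21 genes placed, by rank order from the centromere side, in the 3 comparisons; red points are the 33 genes, blue is SLC19A1 and grey are all others. Most points of both RTX panels lie above 0 on both sides of SLC19A1, while those of the DMSO panel lie around 0. The first points in the order, hsa-mir-8069, BAGE2 and TPTE, lie at -0.18, -0.47 and -0.45 in RTX over DMSO. In RTX over day 0 they lie at 0.11, -0.29 and 0.06.

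SLC19A1 itself stood far above all of them. Its guides had day 0 reads of 35, 199 and 357, DMSO reads of 87, 284 and 414 and RTX reads of 2578, 10090 and 43111, and its median over day 0 was 6.01. The highest of the 33 genes, HLCS, was at 2.19. How the level of SLC19A1 guides relates to that of the 33 genes was not tested.

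Chromosome 21 as a whole lay outside the range of the other chromosomes. The 221 chromosome 21 genes placed by RefSeq are names of the library, with microRNAs and both RIPPLY3 and DSCR6 among them. All 221 had a median of 0.69 in RTX over day 0, 0.73 in RTX over DMSO and 0.03 in DMSO over day 0. Of them, 94.6%, 91.9% and 54.8% lay above 0. On the 22 other chromosomes with at least 200 scored genes, the chromosome medians ran from -0.14 (chromosome 13) to 0.07 (chromosome 1) in RTX over day 0. In RTX over DMSO they ran from -0.12 (chromosome 18) to 0.07 (chromosome 1), and in DMSO over day 0 from -0.04 to 0.07. The share of genes above 0 on those chromosomes was at most 58.6% in RTX over day 0.

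**Figure D4:**
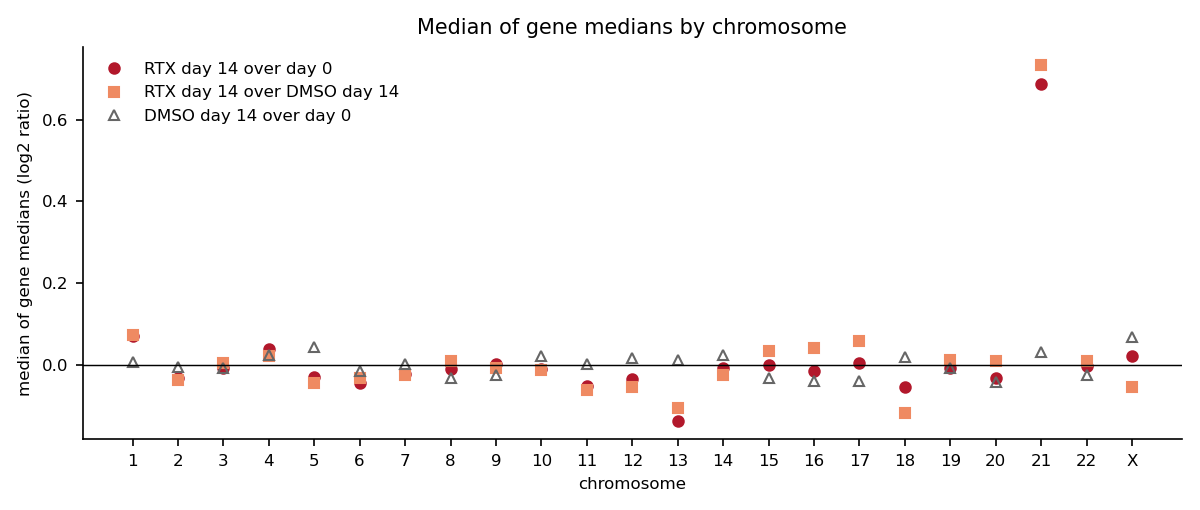
The vertical axis gives the median of the gene medians (log2 ratio) for each chromosome with at least 200 scored genes, for RTX over day 0 (circles), RTX over DMSO (squares) and DMSO over day 0 (open triangles). Chromosome 21 stands at 0.69 and 0.73 in the comparisons with RTX and at 0.03 without it, and all other symbols lie between -0.14 and 0.07.

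Whether these values belong to the drug or to the single RTX culture cannot be told apart with 1 library per condition.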

How the data were processed

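Genomic DNA of 3 NUGC3 groups, 1 library per condition, went through a 2-step PCR and Illumina sequencing, per the labels' protocols. The authors deposited 3 guide tables, 1 per pair of libraries; the submitters' processing notes name MAGeCK 0.5.7 and hg19. The step from reads to guides was not given in the sources used here. Each table has, per the file headers, a control and a treatment column. Their signal is a read count that the authors divided by 1 factor per library in each table. The factor of a library differed between its tables. Dividing by the value of 1 read gave whole reads (tolerance 0.1) for at least 99.9968% of values, with the same reads for a library in both of its tables. No count test was run: there is 1 library per condition, and the genes were chosen with these ratios known.

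Log2 ratios used the deposited values plus 5, for the 62610 of 62916 guides whose day 0 value was 10 or more; ratios of low guides are understated on this scale. A gene's value is the median over guides. Left out of genes were 23 date-like names with 72 guides and the 1000 non-targeting guides. MicroRNA names of the library counted as genes. The computation was tested on simulated reads with counting noise only and the same shift in every guide of a gene. That tests the arithmetic of the score, not its behaviour under the spread between guides seen here. Gene order came from RefSeq for GRCh38.p14, which placed 19345 of 20445 names (2082 by synonym) and all 33 members; because the tables name hg19, no coordinates are given. The guides' sequences were not used here. The members, role groups, alternatives and the rule for reads per guide (a median of at least 0.5 in RTX over day 0 with every guide above 0, or of -0.5 or lower over day 0, or the 3 lowest in RTX over DMSO) were chosen with earlier results of these data known. DSCR3, 1 guide of KCNJ15 and the left-out guide of CBR3 were given by reads after their values were seen. Python 3.11.15, pandas 2.3.3 and SciPy 1.17.1 were used.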

Additional observations from a re-analysis of the deposited data

How the results depend on the processing

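The values were recomputed with a pseudocount of 1 or 20, with no minimum or one of 50 reads, with centring on the non-targeting guides, equal totals, the mean of guides and genes with 3 guides; of the 105 values recomputed for the counts and medians over the 33 genes, 102 stayed within the limits set for them. That number overstates the stability, since it includes counts that stood at 0 in every setting. The mean of guides also cannot change a count of genes with every guide above 0. A change of that count from 24 to 20 in RTX over day 0 was within the limits. Centring on the non-targeting guides moved the median of all scored genes to 0.10 in RTX over DMSO, -0.11 in RTX over day 0 and -0.19 in DMSO over day 0. It raised the genes past 2-fold in RTX over DMSO from 4 to 10, lowered those with every guide above 0 in DMSO over day 0 from 5 to 1 and turned the median there from 0.10 to -0.086. Under it 29 of 33 medians were above 0 in RTX over day 0, where 36.4% of all scored genes were. The median of the 33 genes stayed between 0.62 and 0.74 in RTX over day 0 and between 0.63 and 0.81 in RTX over DMSO, and genes past 2-fold over day 0 numbered 5 to 8 and 3 to 10 in RTX over DMSO. These ranges include 3 settings (a filter of 100 reads, leaving out HLCS, leaving out PSMG1) chosen after the data were seen. With the mean of guides, 31 of 33 genes were above 0 in RTX over day 0, with KCNJ15 at -0.31 and DSCR3 at -0.20, and 32 in RTX over DMSO, where 3 genes changed sign. The authors' log2 fold change column was planned as an alternative and was not run. No paired analysis was possible because each condition has 1 library.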
